A study of Mus musculus with 4 samples.

Results

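The genes described here are 9 components of the transforming growth factor beta (TGF-beta) pathway: the ligand gene Tgfb1, the receptor genes Tgfbr1 and Tgfbr2, the SMAD genes Smad2, Smad3, Smad4 and Smad7, and the corepressor genes Ski and Skil. They were chosen by symbol among probe sets assigned to a single gene, with earlier results of these data known. Each had exactly 1 such probe set, so 9 of 23521 single-gene probe sets, and 9 of the 22180 genes these represent, are members. Expression was measured on 4 Affymetrix arrays, 2 from wild-type (WT) and 2 from SRC-3 knockout (KO) male mice aged 8 weeks, to find genes whose levels differ when SRC-3 is missing. SRC-3 is a transcriptional coactivator encoded by Ncoa3. The labels give no strain, no treatment and no knockout allele, and no cell type to which the deletion is limited. Total RNA came from LSK cells (lineage-negative, Sca1-positive, c-Kit-positive), a flow-sorted population of bone marrow enriched in hematopoietic stem cells and early multipotent progenitors. The samples of a genotype are called biological replicates, but the number of mice pooled in each is not given. Should they share mice, the p-values would cover a technical spread alone.

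TGF-beta is secreted in a latent form and, once active, binds the type II receptor Tgfbr2, which recruits and phosphorylates the type I receptor Tgfbr1. Tgfbr1 phosphorylates Smad2 and Smad3, which join Smad4 and regulate genes in the nucleus. Smad7 blocks the receptor, while Ski and Skil (SnoN) hold the SMAD complex in a repressed state, and Smad7 and Skil are themselves induced by the pathway as negative feedback. In the bone marrow, TGF-beta is known as a signal that holds hematopoietic stem cells in quiescence.

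Values are log2 expression after RMA, a method that subtracts background, equalises arrays and combines the probes of a set. They ran from 0.375 to 12.8, and the mean level of the median gene was 4.32. Ncoa3, the deleted gene, was at 7.76 and 7.05 on the WT arrays and at 5.35 and 5.09 on the KO arrays (limma adjusted p = 0.038). The sort marker Kit was at 10.33 and 9.65 in WT and at 9.43 and 9.34 in KO, and Cd34 was above 10 on all arrays. Ly6a, which encodes Sca1, was not analysed here. Markers of lineage-positive cells were not uniformly dim. Cd3e, Adgre1 and Ly6g did not exceed 4.30 on any array, while Ighm was at 11.11 to 11.75, Nkg7 at 9.64 to 10.36 and H2-Ab1 at 9.05 to 10.20. These were chosen after their values were seen. RMA gives no value of 0 and no detection call was used, so no transcript could be called absent. RNA of a whole sorted population was measured, so fewer cells of a type and less RNA per cell cannot be told apart.

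All 9 genes had a lower mean level in KO than in WT, by 0.06 to 1.20 on the log2 scale, as did 50.2% of all genes. The largest differences lay at the negative regulators: Smad7, Skil and Ski were lower by 2.30-fold, 2.08-fold and 2.07-fold. Tgfbr1 was lower by 1.87-fold, while the ligand Tgfb1 differed by 1.04-fold. None of the 9 passed a limma adjusted p of 0.05 over all genes, a threshold that 0.509% of all genes passed. At an unadjusted p under 0.05, 6 of the 9 were lower and 0 higher, where 6.93% of all genes were lower and 10.5% higher. In 7 of the 9 both KO arrays lay below both WT arrays and in 0 above, as they did for 22.9% and 25.1% of all genes. All 9 lay at or above the median gene in mean level, and of such brighter genes 9.55% were lower at that p and 24.7% lower without overlap. The median difference of the 9 was -0.56, beside -0.001 over all genes. As the 9 were chosen with earlier results of these data known, these shares and medians describe them and test nothing.

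**Figure D1:**
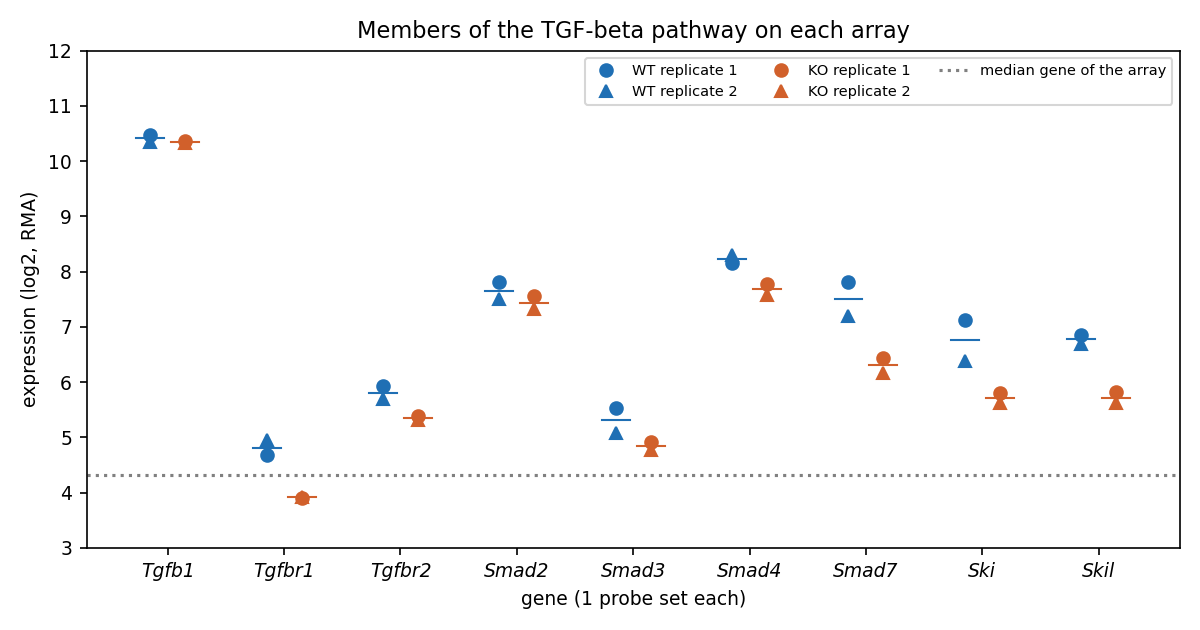
Expression (log2) of each of the 9 genes on each array, with WT in blue and KO in orange, replicate 1 as a circle and replicate 2 as a triangle, and horizontal bars for group means (n = 2). The dotted line is the mean level of the median gene, 4.32. KO lies below WT without overlap in 7 genes, and the groups overlap for Tgfb1 and Smad2. Levels of different genes come from different probes and are not comparable.

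RefSeq promoter sequences (GRCm38.p6) matched 5 of the 9 genes: Tgfb1, Tgfbr1, Tgfbr2, Smad3 and Ski. The 250 bases before the start are shown for Tgfbr1, Tgfbr2 and Ski, whose levels were lower in KO at an unadjusted p under 0.05, and for Tgfb1, whose level was nearly equal, so that their composition can be compared. Each reads 5′ to 3′ on the gene's strand: Tgfbr1 at chr4:47352972-47353221 (plus strand, the first of its starts in the table), Tgfbr2 at chr9:116175364-116175613 (minus strand), Ski at chr4:155222536-155222785 (minus strand) and Tgfb1 at chr7:25686752-25687001 (plus strand). Capitals mark GGCGCC, a GC-rich SMAD motif.
Tgfbr1: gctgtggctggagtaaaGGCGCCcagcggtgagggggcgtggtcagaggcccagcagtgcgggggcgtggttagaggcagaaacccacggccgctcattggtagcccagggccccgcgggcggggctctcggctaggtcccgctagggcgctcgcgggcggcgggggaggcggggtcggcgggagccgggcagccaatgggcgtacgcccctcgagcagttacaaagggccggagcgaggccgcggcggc
Tgfbr2: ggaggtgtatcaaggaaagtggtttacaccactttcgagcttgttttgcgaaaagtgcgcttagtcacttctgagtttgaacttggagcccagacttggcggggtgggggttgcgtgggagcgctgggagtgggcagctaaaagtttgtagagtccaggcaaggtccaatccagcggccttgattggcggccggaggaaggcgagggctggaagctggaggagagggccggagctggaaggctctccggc
Ski: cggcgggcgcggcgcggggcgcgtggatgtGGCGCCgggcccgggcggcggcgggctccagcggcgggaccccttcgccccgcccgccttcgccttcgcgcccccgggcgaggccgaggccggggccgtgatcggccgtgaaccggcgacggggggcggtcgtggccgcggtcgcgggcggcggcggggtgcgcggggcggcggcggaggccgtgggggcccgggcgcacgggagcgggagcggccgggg
Tgfb1: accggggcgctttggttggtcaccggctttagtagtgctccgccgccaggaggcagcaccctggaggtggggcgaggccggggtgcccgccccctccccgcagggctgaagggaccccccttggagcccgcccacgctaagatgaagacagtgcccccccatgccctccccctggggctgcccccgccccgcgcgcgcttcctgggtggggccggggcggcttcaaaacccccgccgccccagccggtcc
The GC content was 74.8% for Tgfbr1, 58.4% for Tgfbr2, 87.6% for Ski and 75.2% for Tgfb1, beside a median of 52.4% over all promoters of that length. Searched on both strands, the palindromic SMAD binding element GTCTAGAC and the CAGA box CAGACA were in none of these 4 windows. GGCGCC was found once each in Tgfbr1 and Ski and not in Tgfbr2 or Tgfb1, and 9.59% of all 32851 promoter windows hold it. GTCTAGAC is in 0.167% and CAGACA in 17.1% of windows. The window of Smad3 (69.2% GC) held none of the motifs. The second Tgfbr1 start in the table, at chr4:47385966-47386215, had a GC content of 52.8%, 1 CAGACA and no GGCGCC. These matches describe letters only.

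Tgfb1 encodes the main TGF-beta ligand of blood cells. It was at 10.47 and 10.35 in WT and at 10.37 and 10.33 in KO. The genotypes overlapped, and the values lay within 0.14 of each other on a probe set brighter than 99.0% of genes. The difference was -0.06 ± 0.13 (SE), with a 95% interval from -0.37 to 0.24 (limma adjusted p = 0.86). Of the other members, only Smad2, at -0.22, had a difference within that interval. Those differences have intervals of their own, and differences between genes were not tested. After quantile normalization the Tgfb1 difference was -0.21, and without WT replicate 1 it was -0.003.

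The receptor genes lay at lower levels in KO. Tgfbr1, the type I receptor kinase, was at 4.69 and 4.95 in WT and at 3.90 and 3.93 in KO. The KO arrays lay close together and 0.76 below the lower WT array. The difference was -0.90 ± 0.18 (SE), with a 95% interval from -1.33 to -0.47 (unadjusted p = 0.0019, limma adjusted p = 0.090). The KO mean of 3.91 was below the level of the median gene, where RMA values are compressed, so the fold may be understated. Tgfbr2, the ligand-binding type II receptor, was at 5.92 and 5.69 in WT and at 5.39 and 5.31 in KO. Its groups did not overlap, but the gap between them was 0.30, against 0.23 between the WT arrays. The difference was -0.46 ± 0.18 (SE, limma unadjusted p = 0.043, adjusted p = 0.27).

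Among the SMADs that carry the signal, Smad4 had the largest difference. Smad4, the common partner of all receptor-activated SMADs, was at 8.16 and 8.31 in WT and at 7.78 and 7.57 in KO. The groups stood 0.38 apart, with a difference of -0.56 ± 0.17 (SE, limma unadjusted p = 0.015, adjusted p = 0.18). Smad3, a DNA-binding receptor-activated SMAD, was at 5.54 and 5.09 in WT and at 4.91 and 4.77 in KO. The groups did not overlap, yet the gap of 0.18 was smaller than the 0.45 between the WT arrays. Its difference was -0.47 ± 0.21 (SE, limma unadjusted p = 0.065, adjusted p = 0.32), and it was -0.25 without WT replicate 1. Smad2, the other receptor-activated SMAD of this branch, was at 7.81 and 7.50 in WT and at 7.55 and 7.32 in KO. Its groups overlapped, and the difference of -0.22 ± 0.19 (SE, limma adjusted p = 0.63) had a 95% interval from -0.68 to 0.24. Leaving out WT replicate 1 gave -0.07, and leaving out KO replicate 2 gave -0.10.

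The inhibitory SMAD and the corepressors had the most negative differences of the 9 genes. Smad7, which competes at the receptor and brings ubiquitin ligases to it, was at 7.82 and 7.20 in WT and at 6.44 and 6.16 in KO. Both KO arrays lay at least 0.75 below both WT arrays. The difference was -1.20 ± 0.25 (SE), with a 95% interval from -1.81 to -0.60 (unadjusted p = 0.0025, limma adjusted p = 0.10), and 0.271% of genes had a more negative one. Skil, the SnoN corepressor, was at 6.86 and 6.70 in WT and at 5.82 and 5.62 in KO. Replicates differed by 0.16 and 0.20, while the groups stood 0.88 apart, the widest gap of the 9 genes. The difference was -1.06 ± 0.18 (SE), with a 95% interval from -1.50 to -0.62 and the smallest p of the 9 (unadjusted p = 0.00090, limma adjusted p = 0.075). Ski, the founding corepressor of that family, was at 7.13 and 6.39 in WT and at 5.80 and 5.62 in KO. The WT arrays differed by 0.74, more than the 0.58 between the groups. The difference was -1.05 ± 0.27 (SE, limma unadjusted p = 0.0073, adjusted p = 0.14), with -0.68 when WT replicate 1 and -1.42 when WT replicate 2 was left out.

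**Figure D2:**
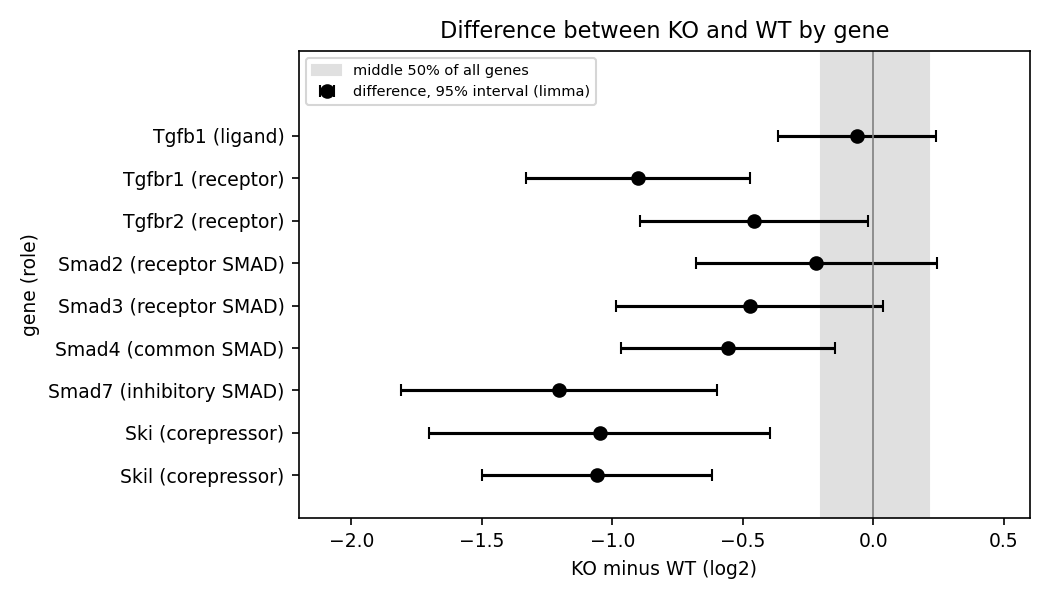
KO minus WT (log2) for each gene, ordered by role from ligand to corepressors, as points with limma 95% intervals (2 arrays per group). The grey band holds the middle 50% of all 22180 genes, from -0.20 to 0.21. The intervals of Tgfb1, Smad2 and Smad3 include 0, and those of the other 6 genes do not.

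The calls of single genes rested on few arrays. Skil passed an adjusted p of 0.05 after quantile normalization (limma adjusted p = 0.048), as did 154 of 22180 genes. It also passed when dimmer genes than the median were left out (limma adjusted p = 0.045), as did 289 of 11090. With an array left out, 1 group holds a single array, so only differences are given. That of Skil then ran from -1.16 to -0.96. Smad7 was at -0.89 without WT replicate 1 and at -1.51 without WT replicate 2, and Ski at -0.68 and -1.42. The mean difference stayed below 0 for all 9 genes with each array left out in turn. For genes whose groups did not overlap it could not have changed sign.

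**Figure D3:**
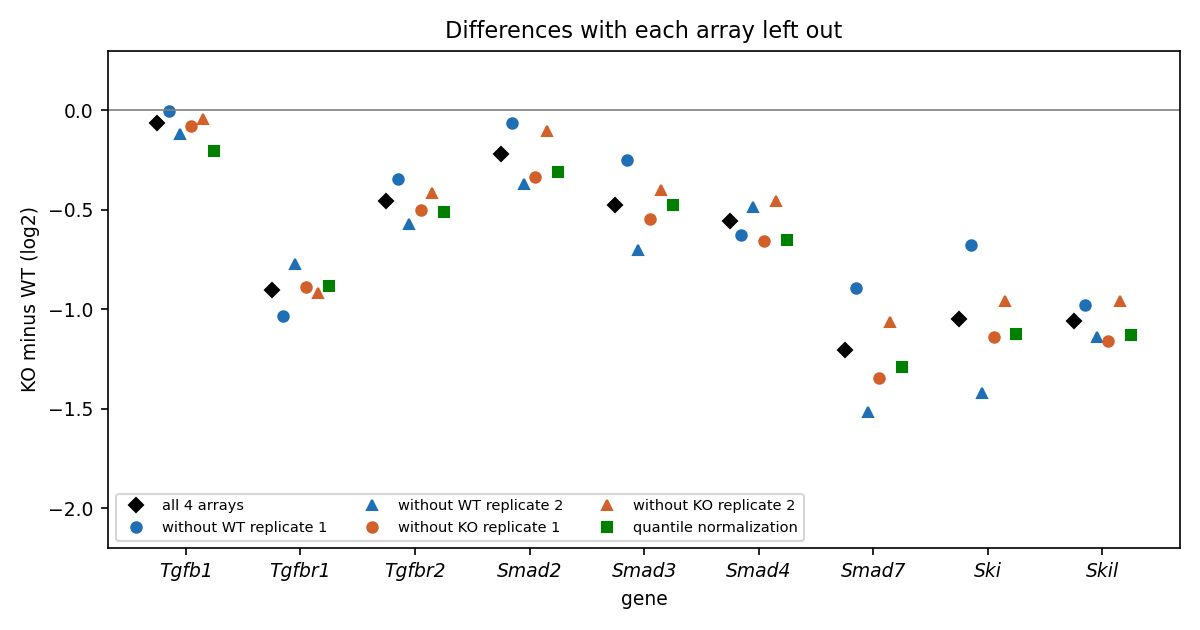
KO minus WT (log2) of each gene with all 4 arrays (black), with each array left out (blue for WT, orange for KO), and after quantile normalization (green). All values lie below 0. Ski and Smad7 move most with the choice of WT array, and Skil stays between -1.16 and -0.96.

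Genomic span is the distance from a gene's start to its end in RefSeq. Among the brighter genes, those whose mean was not below that of the median gene, differences between KO and WT went with span. The median difference was 0.16 for the shortest quintile by span and -0.19 for the longest. The longest quintile began at 61.0 kb and held 6 of the 9 members: Tgfbr1, Tgfbr2, Smad2, Smad3, Smad4 and Ski. In that quintile, 68.9% of genes had a lower mean in KO, 46.1% were lower without overlap and 20.7% were lower at an unadjusted p under 0.05. Smad2, at -0.22, lay near the median of this quintile. Skil, at 27.9 kb, and Tgfb1, at 18.1 kb, were in the middle quintile, where the median was 0.11 and 5.75% of genes were lower at that p. Smad7, at 28.6 kb, was in the fourth, where the median was -0.009 and 8.38% were lower. Skil and Smad7 lay more than 1 on the log2 scale below the median of their quintile. The part of span in the differences of the 9 genes was not tested.

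**Figure D4:**
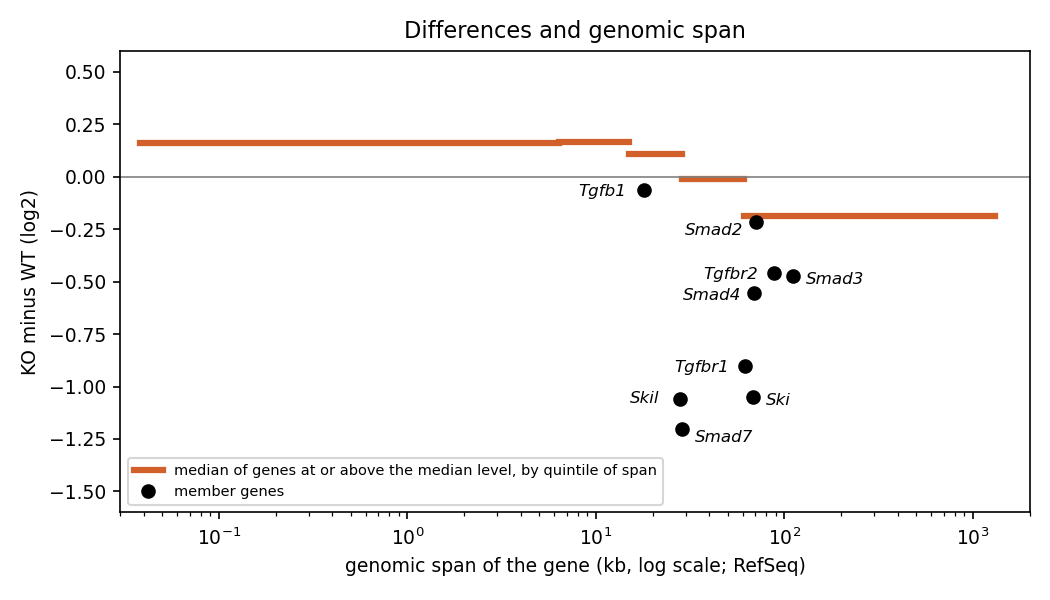
KO minus WT (log2) of the 9 genes (black points) against genomic span in kb on a log scale. Orange lines give the median difference of the brighter genes in each quintile of span, from 0.16 in the shortest to -0.19 in the longest. Smad7 and Skil lie far below the line of their quintile, and Smad2 lies close to it.

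Across the rest of the pathway, 91 of 93 listed genes were measured, and none passed a limma adjusted p of 0.05. At an unadjusted p under 0.05, 21 were lower and 4 higher in KO (6.93% and 10.5% of all genes), and the median difference was -0.21. The lists, like the members, were chosen with earlier results of these data known. Leaving out an array, which leaves a single array in 1 group, changed 1 or both of these counts of lower and higher genes. The share of all genes lower at that p changed too. The 4 higher genes were Mmp14, Acvrl1, Tab1 and Snw1. Some genes of these lists are named below because their list had few past that p, a choice made after their values were seen.

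Of 11 measured ligand genes other than Tgfb1, 0 passed an unadjusted p of 0.05, and the median was -0.05. Gdf11, a relative of the activins, was at -0.57 ± 0.28 (SE), Bmp2 at 0.31 ± 0.16 and Inhbb, an activin subunit, at 0.26 ± 0.18. Tgfb2 and Tgfb3 lay below 3.70 on all arrays. Of 12 genes of latency and activation, 3 were lower and 1 higher, with a median of -0.38. Lrrc32, which holds latent TGF-beta at the cell surface, was at -0.71 ± 0.19, Itgav, the integrin chain that activates it, at -0.53 ± 0.17, and the latent binding protein gene Ltbp3 at -0.47 ± 0.17. Mmp14, a membrane metalloprotease, was at 0.92 ± 0.17 (SE, limma adjusted p = 0.083).

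Among other receptor genes of the superfamily, mostly of the activin and BMP branches, 9 of 12 had a lower mean in KO. Over all genes that share was 50.2%. At an unadjusted p under 0.05, 4 of the 12 were lower and 1 was higher, with a median of -0.26. Bmpr2, the BMP type II receptor, was at 10.08 and 10.16 in WT and at 9.20 and 9.01 in KO. Its groups were far apart relative to their spread (difference -1.01 ± 0.15, SE, limma adjusted p = 0.056). The activin type II receptor gene Acvr2a was at -1.07 ± 0.21, and the type I receptor genes Acvr1b and Acvr1 at -0.76 ± 0.27 and -0.44 ± 0.17. Acvrl1, an endothelial type I receptor, was at 0.48 ± 0.18. The other SMADs had differences from -0.19 to 0.21: Smad5 at -0.19 ± 0.22, Smad1 at -0.09 ± 0.17, Smad9 at 0.21 ± 0.19 and the inhibitory Smad6 at 0.002 ± 0.16 (SE). None of these 4 had an unadjusted p under 0.05.

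At an unadjusted p under 0.05, 5 of 16 adaptors and SMAD partners were lower and 2 higher, with a median of -0.28. The acetyltransferase genes Crebbp and Ep300, whose proteins work with both SMADs and SRC-3, were at -1.02 ± 0.15 and -0.88 ± 0.20, and the SMAD partner Runx1 at -1.05 ± 0.23 (SE, limma adjusted p = 0.056, 0.11 and 0.10). Fkbp1a, whose protein binds the type I receptor, was at -0.62 ± 0.19 and the kinase adaptor Tab2 at -0.50 ± 0.16. Tab1 was at 0.74 ± 0.20 and Snw1 at 0.58 ± 0.15 (SE).

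Of 18 other inhibitors and ubiquitin enzymes that act on the pathway, 5 were lower and 0 higher at that p, with a median of -0.13. Ldlrad4, which sequesters SMADs, was at -0.85 ± 0.19 (SE, limma adjusted p = 0.11). The ubiquitin ligase genes Nedd4l, Rnf111 and Smurf2 were at -0.64 ± 0.17, -0.62 ± 0.17 and -0.64 ± 0.22. Not all genes of this list inhibit: Rnf111 (Arkadia) degrades Smad7, Ski and Skil proteins, and the deubiquitinase genes Usp4, Usp11 and Usp15, at 0.16 ± 0.18, -0.59 ± 0.33 and 0.11 ± 0.18 (SE), stabilise receptors or SMADs. Pmepa1, a feedback inhibitor, was at -0.46 ± 0.18.

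At the same p, 4 of 18 measured target genes were lower and 0 higher, with a median of -0.29. Cdkn1a, the CDK inhibitor p21, was at 10.67 and 10.54 in WT and at 9.75 and 9.74 in KO, with no overlap (difference -0.86 ± 0.13, SE, limma adjusted p = 0.061). Klf10, an early TGF-beta response gene, was at -0.79 ± 0.19, the differentiation inhibitor gene Id2 at -0.91 ± 0.28 and Rgs1, a regulator of G protein signalling, at -0.37 ± 0.14 (SE). Many of these genes answer to other signals as well.

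**Figure D5:**
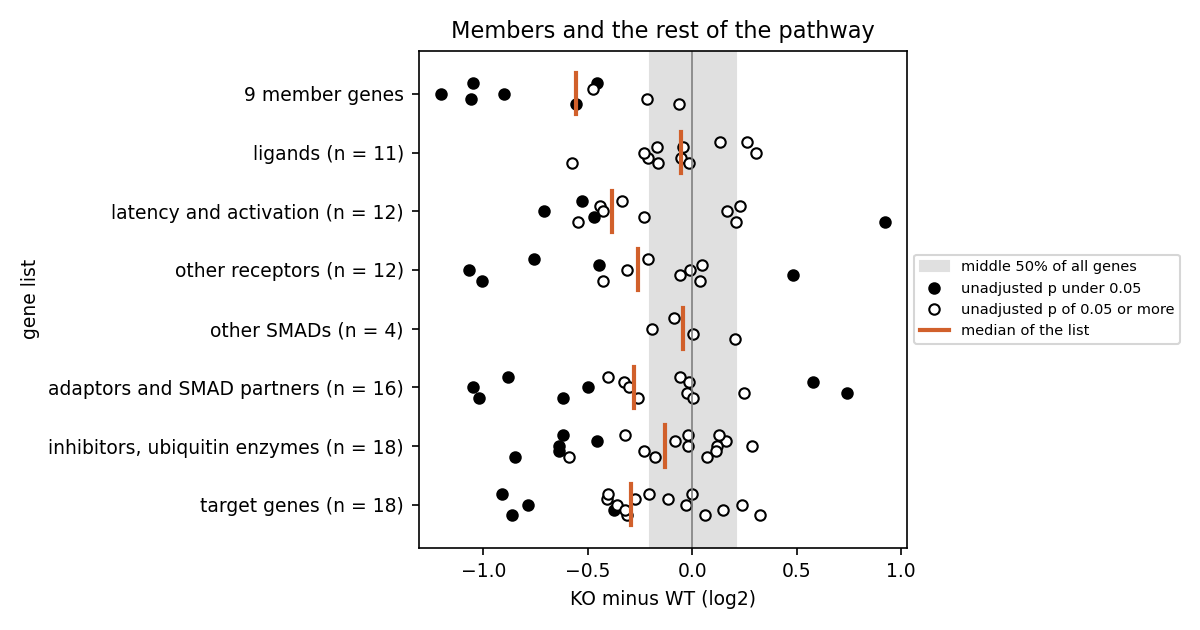
KO minus WT (log2) of the 9 member genes and of 7 lists of other pathway genes, 1 point per gene, filled where the unadjusted limma p was under 0.05, with the list's median as an orange bar. The grey band holds the middle 50% of all genes, from -0.20 to 0.21. The member median of -0.56 is lower than that of each list, which run from -0.38 to -0.04, and filled points lie mostly to the left.

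Genes with the most similar profiles were sought for the 3 members of smallest p, as the smallest root mean square distance between profiles centred on their own mean, over 4 arrays and among the brighter genes. For Skil they were Crebbp (0.026), Aff4 (0.029) and the gene model Gm3893 (0.032), and 41 genes lay within 0.1. For Tgfbr1 they were the small nucleolar RNA gene Snora23 (0.034), E030024N20Rik (0.055) and the early growth response gene Egr2 (0.061), with 18 within 0.1. For Smad7 they were the progenitor receptor gene Flt3 (0.050), Aff3 (0.064) and Egr1 (0.068), with 12 within 0.1. Flt3 was at 9.22 and 8.46 in WT and at 7.76 and 7.52 in KO, with WT replicate 1 the highest of the arrays, as for Smad7. Such likeness follows from how these genes were picked, from 11090 brighter genes on the same 4 arrays, and tests nothing.

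Immediate early genes, induced within minutes by stimuli including cell handling, differed in the same direction as the members. Of 20 immediate early and dissociation stress genes, 13 had lower levels in KO at an unadjusted p under 0.05 and 0 had higher ones. Of all genes, 6.93% were lower and 10.5% higher. The median of the 20 was -0.58. The log2 of their summed linear level was 14.05 and 13.35 in WT and 13.20 and 13.19 in KO. Egr1 was at -1.11 ± 0.23 and Egr2 at -0.82 ± 0.19 (SE). Some markers of other cells differed too, and their counts stand beside the same shares of all genes. Of 6 measured erythroblast markers, Rhag, Ermap and Tspan33 rose past a limma adjusted p of 0.05 and 5 in all had an unadjusted p under 0.05 and a higher level. The other marker, Slc4a1, was at -0.96 ± 0.24 (SE) without overlap. Their summed level was 6.90 to 6.94 in WT and at least 8.96 in KO. Of 13 neutrophil markers 8 were higher, with sums of 12.86 to 13.24 and 13.38 to 13.39. Of 10 platelet and megakaryocyte markers, of cells rich in TGF-beta, 2 were higher, Pf4 by 1.27 ± 0.26 and Gp5 by 1.16 ± 0.25. The sums of that list were 8.63 to 8.78 in WT and 9.15 to 9.17 in KO. By mean, 6 of the 10 were higher and 4 lower (median 0.14), with Itgb3 at -0.50 ± 0.27 (SE). Of 13 macrophage and dendritic markers 4 were higher. H2-Aa, Slc40a1 and H2-Eb1 passed the adjusted threshold, and the other was H2-Ab1, the brightest of the list. By mean, 8 were higher and 5 lower, with a median of 0.15. The sums were 10.24 to 10.32 in WT and 11.05 to 11.09 in KO. Csf1r, at 0.18 ± 0.24, and Cd68, at -0.26 ± 0.20 (SE), had unadjusted p-values above 0.05. Lower at that p were 3 of 9 B cell, 1 of 10 T and NK cell, 3 of 12 stroma and endothelium and 3 of 6 stem and progenitor markers. Those included Jchain, Klrb1c and Pdgfrb and, of the last list, Cd34, Flt3 and the sort marker Kit. The sums of these lists were 11.48 to 11.91, 9.79 to 10.24, 9.56 to 9.72 and 12.25 to 12.42 in WT. In KO they were 11.31 to 11.36, 10.37 to 10.46, 8.98 to 9.07 and 11.95 to 11.99. Klrb1c went against most T and NK cell markers, of which 6 had a higher mean and 4 a lower one (median 0.13). The 1 of 10 called there was near the share of all genes, and Nkg7, the brightest, was at 0.44 ± 0.18 (SE). The part of any of these in the differences of the 9 genes was not tested.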

How the data were processed

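The deposited table holds log2 values of 41345 probe sets on 4 arrays. RMA and Affymetrix Expression Console 1.2.1 are named, per the submitters' processing notes, without settings. The genome build was not given in the sources used here. Platform annotation named 23521 probe sets by 1 gene. Those with several genes (1814) or not listed (16010) were left out. Where a gene had several probe sets, that of highest mean stood for it. The difference KO minus WT was fitted with limma 3.58.1 under R 4.3.3, with an intensity trend and no filter, and two-sided p-values were adjusted by Benjamini-Hochberg over 22180 genes. Every member had a single probe set, and a fit over all single-gene probe sets was also run. The fit was run on simulated data, but recovery was required only at differences larger than those of the 9 genes. The members and lists were chosen with earlier results of these data known. Named genes were the 9 members, Ncoa3, the 3 genes of smallest p in each pathway list, up to 2 per marker list with defining markers, and the nearest profiles. Further genes of these lists were named after their values were seen, to fill out short counts or show what a list holds. Settings varied were normalization, filter, probe summary, variance model, replicate block and each array left out. Arrays have no sequencing depth, and 2 arrays per group limit precision.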

Additional observations from a re-analysis of the deposited data

How the results depend on the processing

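The differences of the 9 genes stayed below 0 under all 12 alternatives, and no call was reversed. Much of this was fixed in advance. Changes of variance model, block, filter or probe set could not alter a difference, as each member had 1 probe set. For genes whose groups did not overlap, leaving out an array could not change the sign. With all 4 arrays 0 members passed the adjusted threshold. That number was 1 when features dimmer than the median were left out (both by gene and by probe set) and 1 after quantile normalization by gene. With each array left out it ran from 0 to 3, by gene and by probe set. The number lower at an unadjusted p under 0.05, 6 in the main analysis, ran from 3 to 9. Of the other pathway genes, the number past the adjusted threshold was 4 without the dimmer features, 3 after quantile normalization and 1 with each array centred on its median, and ran from 0 to 20 with arrays left out. Those lower at an unadjusted p under 0.05 then ran from 6 to 32, and those higher from 1 to 9. With each array left out, the number of all genes past the adjusted threshold changed too. So did the share of all genes lower at an unadjusted p under 0.05. These ranges therefore cannot be read as behaviour of the members or the lists alone. The cause was not tested. With an array left out, 1 group holds a single sample, assumed to vary like the other group. With the replicate number as a block, 7 members and 22 other pathway genes were lower at that p (7.90% of all genes). Of these 0 passed the adjusted threshold. The titles give replicate numbers but no shared source. The deviations of same-numbered arrays correlated at 0.11 over all genes, and with 2 pairs this does not show pairing. No detection calls were used, so what lies at background is unknown.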

Other observations

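Most of the 9 genes also shared a direction between the replicates of a genotype, with 1 pair of arrays in each. Some gaps were small, such as 0.03 between the KO arrays for Tgfb1. Shares among brighter genes alone were not taken. WT replicate 1 was above WT replicate 2 in 7 of 9 members, with Tgfbr1 and Smad4 as the exceptions, and in 46.6% of all genes. KO replicate 1 was above KO replicate 2 in 8 of 9, with Tgfbr1 as the exception, and in 49.1% of all genes. The distance between the WT arrays was 0.74 for Ski and 0.62 for Smad7, and that between the KO arrays was 0.18 and 0.28. Ncoa3, at 7.76 and 7.05 in WT, had the same order.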
